A study of Mus musculus with 6 samples.

Results

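The genes described here are 9 members of the AMPA receptor complex, chosen by symbol from the 51912 genes of the deposited table: the pore-forming subunits Gria1, Gria2, Gria3 and Gria4, the transmembrane AMPA receptor regulatory proteins (TARPs) Cacng2, Cacng3 and Cacng8, and the cornichon homologs Cnih2 and Cnih3. All 9 symbols were found, each on 1 row. The study sequenced RNA from the hippocampus of 2 inbred mouse strains, with 3 libraries labelled C57BL/6 and 3 labelled DBA/2, and no agent, allele or time point separates the groups beyond strain. Frozen tissue was extracted with TRIzol, and the labels leave it unclear whether a library is a single animal or a pool. Age, sex and substrain are not given in the labels used here. The gene tests below rest on how the 3 libraries of a strain varied and on a spread shared with other genes. Some of that variation may be technical.

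AMPA receptors are glutamate-gated ion channels that carry most of the fast excitatory current at synapses of the brain. The GRIA proteins assemble in various combinations to form the channel, and an edited GRIA2 subunit makes it nearly impermeable to calcium. TARPs and cornichons bind the channel, help carry it to the cell surface and slow its closing, and the TARP encoded by Cacng8 (gamma-8) is known for its abundance in the hippocampus.

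The libraries held between 13839366 and 20185683 counts assigned to genes. The submitters' processing notes name GRCm38 as the genome. Whether sequence differences between the strains affected the alignment, and so the counts, was not tested. Gene-level values are given as counts per 1000000 (CPM, scaled by the trimmed mean of M-values) and, where genes are compared with each other, as FPKM, which also divides by gene length. Each library held counts of the Y-linked gene Ddx3y (837 to 1323). In C57BL/6 replicates 1 and 3 there were also 3214 and 6995 counts of Xist, the RNA that coats the inactive X chromosome in females, against 1 to 12 counts in the other 4 libraries. Values without those 2 libraries are given beside the called members. Such a fit leaves 1 C57BL/6 library, whose spread is assumed to be that of the other group. High Xist counts were seen only in C57BL/6 libraries, so sex make-up may differ between the strains. Its part in the strain differences was not tested separately.
Marker lists of the excitatory pyramidal and granule cells gave a mean log2 CPM of 7.13 to 7.24 in C57BL/6 and 7.07 to 7.22 in DBA/2, so the defining neuronal markers of the labelled tissue were present in every library. Counts of called markers stand beside all genes in the test described below, of which 9.09% were higher and 13.7% lower in DBA/2. The 12 thalamus and habenula markers, of tissue next to the hippocampus, summed to 503.5 to 719.0 CPM in C57BL/6 and 264.0 to 347.0 CPM in DBA/2. Of these markers 6 were called lower in DBA/2 and none higher, and the log2 fold change was negative for 11 and positive for 1. The 10 myelin markers summed to 6962 to 8702 CPM in C57BL/6 and 4677 to 6316 CPM in DBA/2, with 2 called lower. All 10 had a negative log2 fold change. Of the oligodendrocyte precursor markers 4 of 8 were lower and 0 higher, of the microglia markers 6 of 10 lower and 0 higher, and of the astrocyte markers 6 of 10 lower and 2 higher. The neocortex and striatum markers gave 2 higher and 1 lower of 10, and none of the 10 choroid plexus markers was called. The choroid plexus markers summed to 1133 to 2328 CPM in C57BL/6 and 1726 to 3730 CPM in DBA/2. Of their log2 fold changes, 9 were positive and 1 negative, with a wide spread within each strain. In the lists other than myelin and microglia the most abundant markers were Camk2a and Slc17a7, Gad1 and Cck, Zic1 and Prkcd, Olig1 and Gpr17, Slc1a2 and Aldoc, Ttr and Enpp2, and Ppp1r1b and Fezf2. No marker in these lists was at 0 in any library.

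Most of the complex was measured at similar levels in both strains. In the quasi-likelihood test of edgeR, with p-values adjusted over 17517 genes (Benjamini-Hochberg), 1 of the 9 members was higher in DBA/2 (Cacng8), 1 was lower (Gria4), and 7 did not pass an adjusted p of 0.05. All 9 passed the filter on low counts. Of all genes tested, 22.8% were called, 9.09% as higher and 13.7% as lower in DBA/2, so the members' count of 2 in 9 is near this background. The median log2 fold change (DBA/2 over C57BL/6) was 0.007 over the members and 0.003 over all tested genes. Groups did not overlap for 3 members (Gria4, Cacng2 and Cacng8), against 36.8% of all genes tested.

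**Figure D1:**
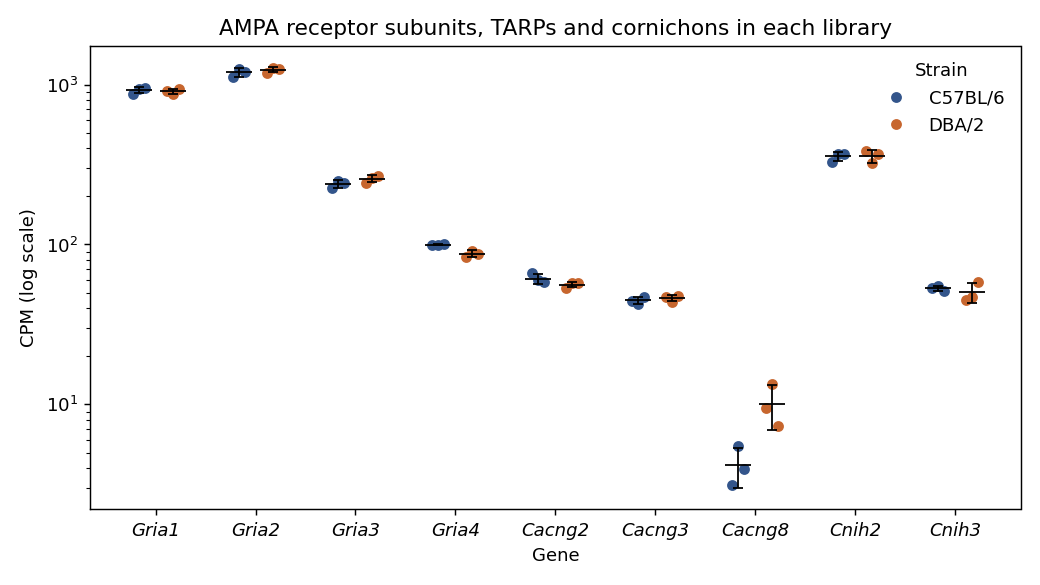
CPM (log axis) of each of the 9 members in each library, with 1 point a library, C57BL/6 in blue, DBA/2 in orange and the mean and SD in black. Cacng8 sat between 3.13 and 5.47 CPM in C57BL/6 and between 7.28 and 13.4 CPM in DBA/2, and Gria4 was between 98.6 and 100.3 CPM against 83.4 to 91.6 CPM.

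Reads that fall in sequence shared by several subunits cannot be given to a single gene. The longest identical stretch found between a pair of pore-forming subunits, with 1 coding sequence taken for each, is therefore shown. With 1 coding sequence taken for each gene, 70.5% to 73.1% of aligned bases were identical between any pair of them. The longest identical stretch in these alignments, 50 bases, was between Gria3 and Gria4, in exon 14 of each. The closest match in the coding sequence taken for each of the 4 genes follows, with capitals at each base that differs from Gria3. These bases lie in exon 14 and are given 5′ to 3′ on the coding strand in GRCm38 with the GENCODE M21 annotation.
Gria1 (chr11:57309806-57309855, plus strand): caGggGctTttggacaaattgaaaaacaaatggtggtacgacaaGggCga
Gria2 (chr3:80690432-80690481, minus strand): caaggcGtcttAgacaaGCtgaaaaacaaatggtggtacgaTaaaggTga
Gria3 (chrX:41654847-41654896, plus strand): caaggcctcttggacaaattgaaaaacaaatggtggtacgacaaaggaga
Gria4 (chr9:4432801-4432850, minus strand): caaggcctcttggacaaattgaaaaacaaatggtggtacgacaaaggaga
In the sequences printed, Gria1 differed from Gria3 at 5 of these bases, Gria2 at 6 and Gria4 at 0. Isoforms not printed were not compared base by base, so these are not differences between all forms of the genes. Over all annotated transcripts, which include isoforms not printed here, 0.73% of the 50-base words of Gria2, 0.61% of those of Gria3 and 0.33% of those of Gria4 occurred in a transcript of some other gene, and 0 of the 6035 words of Gria1 did. Within the family, Gria2 shared 9 words with Gria3 and 8 with Gria4, and Gria3 shared 4 with Gria4. In the coding sequences taken, Gria2 shared at most 22 bases in a row with Gria3 and 23 with Gria4. The words it shared with them therefore involve sequence not printed here, and the printed stretch does not show the most shared sequence of the family.

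Gria1 (ENSMUSG00000020524, chr11:57011387-57330244, plus strand) encodes the subunit known for its role in long-term potentiation in the hippocampus. Its level was 875.9, 931.8 and 951.5 CPM in C57BL/6 and 913.9, 877.3 and 936.7 CPM in DBA/2. The libraries of the 2 strains overlapped, and the means, 919.7 ± 39.2 (SD, n = 3) and 909.3 ± 30.0 CPM, differed by less than that spread. The log2 fold change was -0.02 (SE 0.05, 95% interval -0.11 to 0.08), an interval that spans folds of 0.925 to 1.06, and scaled by library size alone it was 0.01.
Gria2 (ENSMUSG00000033981, chr3:80681450-80802835, minus strand), whose edited transcript sets calcium permeability, measured 1121, 1260.4 and 1196 CPM in C57BL/6 and 1184, 1278 and 1256 CPM in DBA/2. These ranges overlapped too, and the log2 fold change was 0.06 (95% interval -0.05 to 0.16).
Gria3 lies on the X chromosome (ENSMUSG00000001986, chrX:41400854-41678601, plus strand). It was measured at 225.6, 249.9 and 244.0 CPM in C57BL/6 and 243.3, 261.8 and 269.6 CPM in DBA/2. The lowest DBA/2 library lay just below the middle C57BL/6 library. The log2 fold change of 0.11 (SE 0.05) had an adjusted p of 0.145 by edgeR's quasi-likelihood test. Of the 6 such fits that left out 1 library, 5 also gave no call. Without DBA/2 replicate 1 the difference was 0.15 (adjusted p = 0.0485, edgeR), and without C57BL/6 replicate 1 it was 0.065 (adjusted p = 0.506, edgeR). Without the C57BL/6 libraries with Xist counts the difference was 0.05.

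Gria4, a subunit enriched in fast-spiking interneurons, was the only pore-forming gene to pass the test (ENSMUSG00000025892, chr9:4417896-4796234, minus strand). Its level was 98.6, 99.6 and 100.3 CPM in C57BL/6 and 83.4, 91.6 and 87.8 CPM in DBA/2, from 1219 to 2010 counts a library. Every DBA/2 library was below every C57BL/6 library, and the C57BL/6 libraries lay close together. The means were 99.5 ± 0.840 and 87.6 ± 4.14 CPM (SD, n = 3). The fitted log2 fold change was -0.18 (SE 0.05, 95% interval -0.29 to -0.07), with a Benjamini-Hochberg adjusted p of 0.0134 (edgeR, quasi-likelihood). Without DBA/2 replicate 1 the call was lost (log2 fold change -0.15, adjusted p = 0.0885), as it was on log2(FPKM + 1) with limma (-0.15, adjusted p = 0.0626) and without the 2 C57BL/6 libraries with Xist counts (-0.18, adjusted p = 0.22). The 12 interneuron markers gave 1 higher and 1 lower gene and a mean log2 CPM of 6.07 to 6.15 in C57BL/6 and 6.10 to 6.17 in DBA/2. The thalamus and habenula markers were lower in DBA/2 as Gria4 was, and their part in its difference was not tested. In bulk tissue, fewer cells of a type and less RNA per cell cannot be told apart.

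Cacng2 (stargazin; ENSMUSG00000019146, chr15:77991748-78120028, minus strand), the TARP best known from the cerebellum, measured 66.0, 59.7 and 57.9 CPM in C57BL/6 and 53.6, 57.1 and 57.1 CPM in DBA/2. The groups did not overlap, but the lowest C57BL/6 library was just above the highest DBA/2 library. The log2 fold change was -0.13 (SE 0.06, 95% interval -0.26 to 0.0), with an adjusted p of 0.151 by edgeR's quasi-likelihood test. Of the 50-base words of Cacng2, 5.86% also occurred in other genes, most of them (5.02% of all its words) in its antisense neighbour A730060N03Rik, and the counting was not stated to use strand.
Cacng3 (ENSMUSG00000066189, chr7:122670492-122769393, plus strand), another TARP of the forebrain, measured 44.4, 42.5 and 47.1 CPM in C57BL/6 and 47.0, 43.8 and 47.8 CPM in DBA/2. Its groups overlapped, and the log2 fold change was 0.05 (95% interval -0.09 to 0.18).

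The member with the largest difference was Cacng8, whose product is the main TARP of hippocampal pyramidal cells (ENSMUSG00000053395, chr7:3390683-3415648, plus strand). It had 52, 75 and 79 counts in C57BL/6 against 161, 228 and 101 counts in DBA/2. The corresponding levels were 3.13, 5.47 and 3.94 CPM in C57BL/6 and 9.45, 13.4 and 7.28 CPM in DBA/2, so the groups did not overlap. DBA/2 replicate 2 was the highest library and C57BL/6 replicate 1 the lowest. The means were 4.18 ± 1.19 and 10.05 ± 3.12 CPM (SD, n = 3), a ratio of 2.41. The fitted log2 fold change was 1.30 (SE 0.25, 95% interval 0.73 to 1.86), with a Benjamini-Hochberg adjusted p of 0.00374 (edgeR, quasi-likelihood), and 3.8% of all tested genes had a larger absolute change. Each of the 6 fits that left out 1 library kept the call (log2 fold change 1.03 to 1.51, adjusted p up to 0.0394). Without the 2 C57BL/6 libraries with Xist counts the difference was 0.89 with an adjusted p of 0.111.
Cacng8 had the fewest counts of the members. Its coding sequence is 66.6% G and C, the highest of the members (44.6% to 57.3% in the others), and its richest 120-base coding window is shown because it is the clearest sequence difference from the other members. It is 88.3% G and C, in exon 6 (chr7:3415291-3415410, plus strand), with G and C in capitals.
Cacng8 GC-rich window: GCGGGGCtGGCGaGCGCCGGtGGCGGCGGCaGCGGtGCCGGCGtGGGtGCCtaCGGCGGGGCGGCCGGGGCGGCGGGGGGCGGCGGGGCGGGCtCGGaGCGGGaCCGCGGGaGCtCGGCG
In the other members the richest such window reached 54.2% to 75.0%. With a per-library correction for G and C content, the log2 fold change of Cacng8 was 1.29 with an adjusted p of 0.0183. The longest annotated 3′ UTR of Cacng8 was 43 bases, against 547 to 7268 bases in the other members. Of the 12 pyramidal and granule cell markers, 3 were higher and 1 lower in DBA/2, against 9.09% and 13.7% of all genes tested. The part of these markers in the Cacng8 difference was not tested.
The TARPs are related proteins as well. The 23-base stretch shared by Cacng2 and Cacng3 and its counterpart in Cacng8 are given next, with capitals where Cacng8 differs.
Cacng2 (chr15:77995582-77995604, minus strand, exon 4): agctactcctacggctggtcctt
Cacng3 (chr7:122768412-122768434, plus strand, exon 4): agctactcctacggctggtcctt
Cacng8 (chr7:3414925-3414947, plus strand, exon 6): CActactcGtacggctggtcctt
Cacng8 differed at 3 of these bases. Its coding bases were 70.7% identical to those of Cacng2 and 67.0% to those of Cacng3. Of its 50-base words, 1.83% were also annotated to the small RNA gene Gm23450, which overlaps its exons on the same strand (chr7:3415066-3415156).

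**Figure D2:**
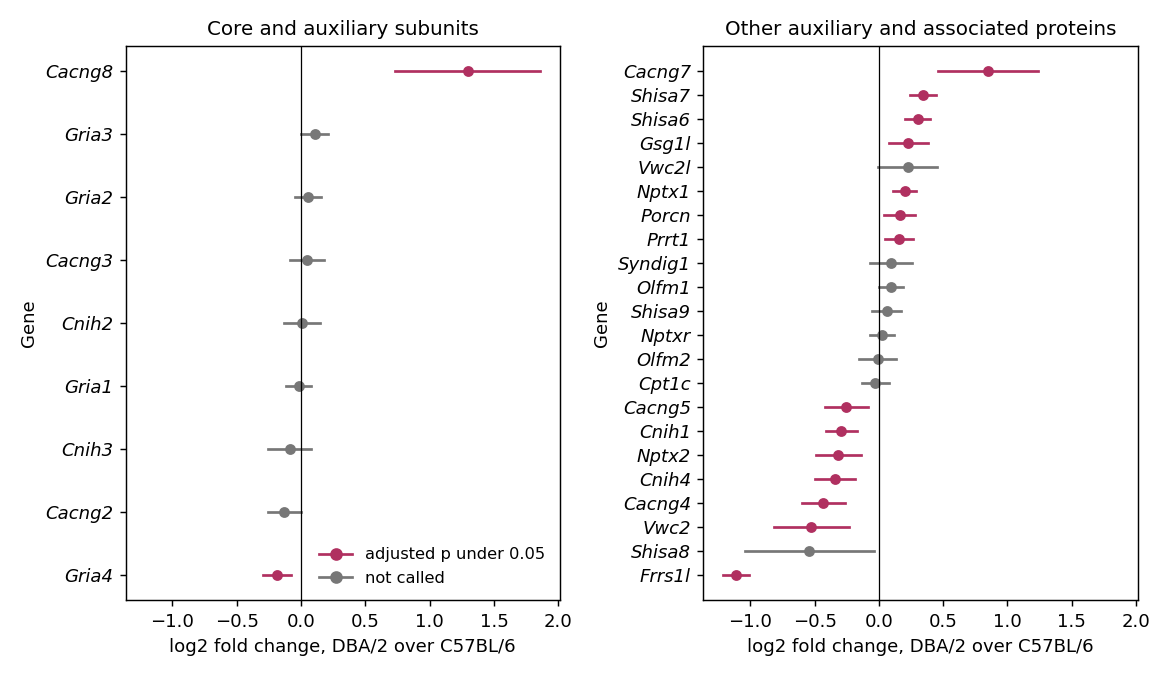
Log2 fold change (DBA/2 over C57BL/6) of each member (left) and of 22 other auxiliary proteins (right), with 95% intervals from edgeR and called genes in red. Cacng8 lies at 1.30 and Gria4 at -0.18, the other 7 members lie between -0.13 and 0.11, and the right panel runs from Frrs1l at -1.11 to Cacng7 at 0.85.

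Genes beside Cacng8 on chromosome 7 were examined after its values had been seen. Of 59 other genes within 500 kb, 15 were tested, 4 of which were higher and 4 lower in DBA/2, against a background of 9.09% and 13.7%. The nearest tested gene on each side, Cacng7 and 3300002P13Rik, was higher.
Cacng7, another TARP gene, lies before Cacng8 on the same strand (chr7:3332955-3368221, plus strand). It measured 3.25, 2.99 and 3.24 CPM in C57BL/6 and 6.40, 6.42 and 4.18 CPM in DBA/2, with no overlap, and its log2 fold change was 0.85 (adjusted p = 0.0016, edgeR). The long noncoding RNA 3300002P13Rik, on the other side and on the minus strand (chr7:3421665-3423445), had 8, 8 and 7 counts in C57BL/6 and 120, 70 and 81 counts in DBA/2, a log2 fold change of 3.61 (adjusted p = 1.33e-09, edgeR).
Farther away, Oscar fell from 63, 51 and 69 counts to 7, 5 and 4 counts (log2 fold change -3.42, adjusted p = 6.79e-09, edgeR), and Tmc4, Mboat7 and Tsen34 were lower by smaller amounts. Cnot3 was higher by 0.21 (adjusted p = 0.0144, edgeR), but was not called without C57BL/6 replicate 1 or DBA/2 replicate 3 (adjusted p of 0.0813 and 0.0791). Around Gria4, none of the 4 tested genes of 10 neighbours was called.

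Cnih2 (ENSMUSG00000024873, chr19:5092868-5098521, minus strand) encodes the cornichon that is abundant in hippocampal neurons and promotes export of the receptor from the endoplasmic reticulum. It measured 328.1, 368.9 and 369.6 CPM in C57BL/6 and 384.2, 321.4 and 366.1 CPM in DBA/2. Its groups overlapped, and the log2 fold change was 0.01 (95% interval -0.13 to 0.15, folds of 0.913 to 1.11), or -0.01 with the correction for G and C content.
Cnih3 (ENSMUSG00000026514, chr1:181352628-181460641, plus strand), the closest relative of Cnih2, measured 53.3, 54.7 and 51.4 CPM in C57BL/6 and 45.3, 46.9 and 58.2 CPM in DBA/2. The DBA/2 libraries included both the lowest and the highest value. The log2 fold change was -0.09 (95% interval -0.25 to 0.08). Without DBA/2 replicate 3, the highest library, it was -0.20 with an adjusted p of 0.0393 by edgeR's quasi-likelihood test. Of the 6 such fits that left out 1 library, 5 gave no call. The pair was 77.2% identical over aligned coding bases, and the longest shared stretch, 19 bases in exon 3, reads the same in both genes.
Cnih2 and Cnih3 (chr19:5094298-5094316, minus strand; chr1:181409644-181409662, plus strand): aacatcgaacgcatctgct

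Per unit length, the order of the members was the same in both strains. In C57BL/6 the FPKM levels were 284.6 ± 19.7 for Cnih2, 150.7 ± 6.82 for Gria1, 75.9 ± 4.54 for Gria2 and 24.1 ± 1.32 for Gria3 (SD, n = 3). Below these were Cnih3 at 19.1 ± 0.570, Cacng3 at 15.9 ± 0.858, Gria4 at 15.6 ± 0.175, Cacng2 at 10.99 ± 0.739 and Cacng8 at 1.77 ± 0.502 FPKM. In DBA/2 the corresponding FPKM of Cacng8 was 4.32 ± 1.35, still last. Its listed exonic length was 2345 bases, its longest annotated 3′ UTR 43 bases and its coding sequence 66.6% G and C. The part of these in its low rank and share was not tested. Neighbours in the order overlapped only for Cacng3 and Gria4 in C57BL/6 and for Cnih3 and Cacng3 in DBA/2. FPKM depends on the length used: Gria2 had the most counts among the pore-forming genes, but its listed exonic length was 15548 bases against 6043 for Gria1.

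As a share of the summed FPKM of the 4 pore-forming genes, Gria1 made up 56.6% ± 0.738 in C57BL/6 and 55.7% ± 1.48 in DBA/2 (SD, n = 3), and Gria2 28.5% ± 0.723 and 29.5% ± 0.996. The share of Gria3 was 9.04% ± 0.116 in C57BL/6 and 9.69% ± 0.336 in DBA/2, and that of Gria4 was 5.87% ± 0.218 and 5.14% ± 0.236. For Gria3 and Gria4 the groups did not overlap, with an exact two-sided permutation p of 0.1 each (adjusted over 8 shares, 0.2), and 0.1 is the smallest p that 3 against 3 libraries allow. The sum itself was 266.3 ± 12.1 FPKM in C57BL/6 and 272.1 ± 5.39 FPKM in DBA/2, a difference below the spread. Shares and sum depend on the length used, which the SDs do not cover. The longest annotated transcript was 5546 bases for Gria1, 10371 for Gria2 and 5206 for Gria3, against listed exonic lengths of 6043, 15548 and 9859.
Among the 3 member TARPs, Cacng8 made up 4.56%, 8.20% and 5.77% in C57BL/6, against 13.1%, 18.0% and 10.1% in DBA/2. The groups again did not overlap, with an exact permutation p of 0.1 (adjusted over 8 shares, 0.2). The share of Cacng2 was 38.3% ± 2.43 in C57BL/6 and 32.7% ± 1.05 in DBA/2, without overlap (exact permutation p = 0.1, adjusted 0.2). The summed FPKM of the 3 TARPs was itself 28.94, 28.17 and 28.94 in C57BL/6 and 30.92, 32.18 and 30.79 in DBA/2. These sums did not overlap, so the shares have a larger denominator in DBA/2. Cacng8 is part of that sum, at 1.77 FPKM in C57BL/6 and 4.32 FPKM in DBA/2. Cacng2, not called, was at 10.99 and 10.22 FPKM, so its share is not a result separate from that of Cacng8. The share of Cacng3 was 55.5% ± 2.37 and 53.6% ± 3.56, with overlapping libraries. By raw counts instead of FPKM the Cacng3 difference turned sign (0.615 percentage points higher in DBA/2), as it did without DBA/2 replicate 2 (0.15). Cnih3 made up 6.32% ± 0.467 and 5.955% ± 0.840 of the 2 cornichons, a difference that turned sign without DBA/2 replicate 1 (0.1 percentage points higher in DBA/2). The cornichon sum was 303.7 ± 19.6 FPKM in C57BL/6 and 309.1 ± 26.0 FPKM in DBA/2.

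**Figure D3:**
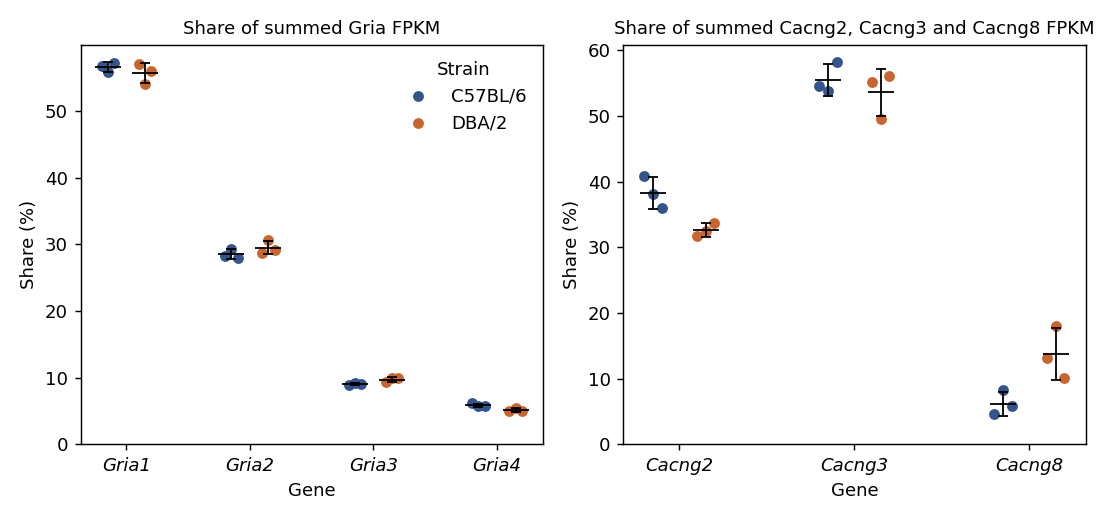
Share (%) of each member in the summed FPKM of the pore-forming genes (left) and of Cacng2, Cacng3 and Cacng8 (right). Each library is 1 point, C57BL/6 in blue and DBA/2 in orange, with the mean and SD in black. The DBA/2 libraries lie at 10.1% to 18.0% for Cacng8 against 4.56% to 8.20% in C57BL/6, and the shares of Gria1 and Gria2 overlap.

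Other genes of AMPA receptor signalling were read from lists. Of 22 other auxiliary proteins tested, 7 were higher and 7 lower, with a median log2 fold change of 0.04 against 0.003 over all genes, and the strains did not overlap for 17. Over all genes tested, 9.09% were higher, 13.7% were lower and 36.8% did not overlap, which is also the background of the other lists. Frrs1l, a protein needed for assembly of the receptor, fell from 384.7, 395.7 and 427.0 CPM to 184.9, 188.3 and 186.2 CPM (log2 fold change -1.11, SE 0.05, adjusted p = 1.35e-14, edgeR). The other TARP genes Cacng4 (32.6 ± 2.40 to 24.2 ± 1.85 CPM) and Cacng5 (25.8 ± 1.06 to 21.6 ± 1.12 CPM) were lower, with log2 fold changes of -0.43 and -0.25 (adjusted p of 0.000279 and 0.0245, edgeR). Cacng5 was not called when C57BL/6 replicate 1 or 2 or DBA/2 replicate 2 or 3 was left out (adjusted p 0.0640 to 0.0978). Shisa6 and Shisa7, auxiliary subunits that slow or alter desensitisation, were higher by 0.30 and 0.34 (Shisa7 from 283.6 ± 14.2 to 359.9 ± 10.6 CPM). Vwc2, a secreted auxiliary protein, had a log2 fold change of -0.53 (adjusted p = 0.00801, edgeR), which was no longer called without C57BL/6 replicate 1 (-0.42, adjusted p = 0.0728).
Of 24 anchoring and trafficking genes, 2 were higher and 0 lower, both by little: Dlg1, a scaffold of the synapse, by 0.19, and Gripap1, which binds a GRIA-binding scaffold, by 0.15 (adjusted p of 0.00923 and 0.0329, edgeR). Dlg1 was not called without C57BL/6 replicate 2 (adjusted p = 0.0599), nor Gripap1 when any C57BL/6 library, or DBA/2 replicate 3, was left out (adjusted p up to 0.15, edgeR). Of 20 kinases, phosphatases, palmitoylation and ubiquitination enzymes, 3 were higher and 3 lower. Zdhhc2, a palmitoylating enzyme, was lower by a log2 fold change of -0.25 (adjusted p = 0.00531, edgeR). Usp46, a deubiquitinase that acts on AMPA receptors, had the largest fall of the list (132.1 ± 5.12 to 76.1 ± 3.72 CPM, log2 fold change -0.80, adjusted p = 5.22e-11, edgeR). Of the 50-base words of the longest Usp46 transcript, 4.29% also occurred in other genes, among them its antisense genes. Of 3 editing enzymes, Adarb1, which edits the Gria2 transcript, was lower (275.9 ± 35.3 to 228.4 ± 7.93 CPM, log2 fold change -0.27, adjusted p = 0.0317, edgeR), but the call was lost whichever DBA/2 library was left out (log2 fold change -0.30 to -0.25, adjusted p 0.105 to 0.128). Without C57BL/6 replicate 1 the Adarb1 difference was -0.16 (adjusted p = 0.0429, edgeR).
By likeness of log2 CPM over the 6 libraries, among 11674 genes compared, the genes most like Cacng8 were Bend4 (Pearson r 0.9964), Ss18l1 (0.9926) and Zfp772 (0.9911), and 63 genes had r above 0.95. For Gria4 they were Cntln (0.9962), Gpx3 (0.9944) and Coa5 (0.9931), with 171 genes above 0.95. The correlations rest on the same 6 libraries and do not mean a difference of like size. The log2 fold changes of Bend4, Ss18l1 and Zfp772 were 0.31, 0.17 and 0.23. Those of Cntln, Gpx3 and Coa5 were -0.17, -0.85 and -0.33. Zfp772 and Cntln were not called (adjusted p of 0.0853 and 0.196, edgeR).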

How the data were processed

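RNA from 6 mouse hippocampus libraries (3 C57BL/6, 3 DBA/2; NEBNext Ultra kit, Illumina HiSeq, per the labels' protocols) was used. Strain came from each sample's strain label. The submitters' processing notes name Trimmomatic 0.30, HISAT2 2.0.1 and Cufflinks 2.2.1 with GRCm38. Not given in the sources used here are the counting program, annotation and strand setting. The authors deposited a table that gives raw read counts per gene and FPKM values, which equal the deposited count scaled by library total and gene length within 0.005. A further 12 columns of per-sample values carry no label of these samples and were not used. Library totals were 13839366 to 20185683 counts, and the smallest member had 52 counts in a library, so counting error is large only for Cacng8.

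Counts were tested with edgeR 4.0.16 (R 4.3.3; TMM scaling, filter on low counts by strain, robust quasi-likelihood fit) on 17517 genes, with Benjamini-Hochberg adjustment and a threshold of 0.05. SEs are the fold change over the square root of F, and intervals are 95%. The fit was tested on simulated counts. Alternatives were other scalings and filters, DESeq2 1.42.0, limma 3.58.1 (voom, and log2 of FPKM plus 1 or 0.1), a replicate block, a correction for G and C content (99.7% of genes had a value) and leaving out each library. A fit without the 2 C57BL/6 libraries with Xist counts was added after the data were seen. Shares were compared by exact permutation over libraries. Replicate numbers did not pair the libraries (correlations of deviations 0.218, -0.221 and -0.032). Sequences and coordinates are from GENCODE M21, which held 99.5% of the gene IDs. Named genes were the members, up to 3 called genes with the largest change from each of 4 related lists, the 2 most abundant of each of 9 marker lists, and for the called members the 3 genes most like them; other genes, among them those beside Cacng8, Cacng4, Cacng5 and the Shisa genes, were named after their values were seen. The members and lists were chosen with earlier results of these data known. Some genes that this rule or the counts cover are not reported here by name.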

Additional observations from a re-analysis of the deposited data

How the results depend on the processing

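Values are log2 fold changes, DBA/2 over C57BL/6. With the C57BL/6 libraries holding Xist counts left out, 0 members were called in either direction, 2012 genes were called in all against 4000, and Gria4 was -0.18 (adjusted p = 0.22), Cacng8 0.89 (0.111), Gria2 -0.021, Cnih2 -0.044 and the Cacng8 neighbour Myadm -0.25; this fit has 1 C57BL/6 library, so fewer samples. On log2(FPKM + 1) and log2(FPKM + 0.1) with limma, 0 members were lower (Gria4 -0.15 and -0.16); the cause was not tested. Gria1, never called, was 0.007 under library size alone and 0.008 under both FPKM scales, and Cnih2 was -0.005 with the GC correction and -0.004 with it and the replicate block. Leaving out single libraries gave 1 to 2 members higher and 0 to 2 lower, Gria1 at -0.049 to 0.01, Gria2 at 0.014 to 0.099, Gria3 at 0.065 to 0.151, Cacng2 at -0.169 to -0.07, Cacng3 at 0.015 to 0.089, Gria4 at -0.22 to -0.15, Cacng8 at 1.03 to 1.51, Cnih2 at -0.047 to 0.079 and Cnih3 at -0.2 to -0.015; the neighbour Tfpt ranged from -0.001 to 0.13. In percentage points the Cacng3 share differed by -3.14 to 0.15 and the Cnih3 share by -0.72 to 0.1. The numbers did not pair the libraries, and libraries did not all correlate best with their own number; with the replicate block 3827 genes were called, Cacng8 was 1.25 and Gria4 -0.19, and no member's call changed. Outside the single-library fits, 7 fold changes of uncalled members turned sign, 4 values lost the call and 4 counts moved; the other 133 values kept their call or, for shares, moved by less than the spread between libraries, although the Cacng3 share difference turned sign by raw counts. Depth limits Cacng8 most, with 52 to 79 counts in the C57BL/6 libraries.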
